A study of Rattus norvegicus with 6 samples.

Results

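In all, 10 leukocyte marker genes were followed on 6 one-colour rat arrays: the macrophage markers Clec4f, Vsig4, Cd163, Marco, Cd5l, Cd68 and Csf1r, the lysozyme gene Lyz2, and the neutrophil and monocyte genes S100a8 and S100a9. Members were all probes whose gene symbol equals one of these names in the authors' deposited series table. They comprise 12 probes of 10 genes, out of 30367 probes of 19958 genes in all. Clec4f and the brighter of the 2 Cd5l probes were printed at 10 spots an array, and every other member probe at 1 or 2.

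Total RNA came from the liver and kidney of Wistar rats fed the purified diet AIN-93G for 4 weeks, either without iron (iron-free) or with it (iron-sufficient), and from FAO, a rat hepatoma line, given 100 µM of the iron chelator deferoxamine (DFO) for 24 h or left without it for the same time (the labels give this control as untreated and also as given the vehicle solution). Each of the 6 groups is 1 array made from pooled RNA, of 6 animals for each tissue and diet and of 3 cultures for FAO, and some labels call the rats mice. There is no replicate and no p-value is given. The error printed is a standard error between repeated spots, pooled over probes of similar signal. It covers the array surface and not animals or cultures, and the spread of a probe's own spots can be smaller or larger. FAO is a single established line without blood or resident leukocytes, so it shows what these probes read where no leukocyte RNA is present.

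Kupffer cells, the resident macrophages of the liver sinusoids, take up bacteria, complement-coated particles, haemoglobin bound to haptoglobin, and aged red cells, whose iron they return to plasma. Clec4f is a lectin receptor that in rodents marks Kupffer cells, and Vsig4, Cd163 and Marco are surface receptors of tissue macrophages for complement, for haemoglobin with haptoglobin, and for bacteria and modified lipoproteins. Cd5l is a protein secreted by macrophages, Cd68 a lysosomal membrane glycoprotein, and Csf1r the receptor for the growth factors Csf1 and Il34. Lysozyme is made by macrophages and neutrophils, and in rodents also by some epithelia, while S100a8 and S100a9 are calcium-binding proteins that pair with each other and fill the cytosol of neutrophils and of young monocytes.

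The promoters of 4 members are shown because the liver results below turn on them: Marco, Lyz2 and S100a9 passed the size rule between diets, and Clec4f, the member with the most spots, did not. Sequences are RefSeq's for assembly GRCr8, 250 bases before to 50 after the annotated gene start, written 5′ to 3′ along the gene. They lie at chr13:34201206-34201505, minus strand (Marco), chr7:54797962-54798261, minus strand (Lyz2), chr2:178490573-178490872, minus strand (S100a9) and chr4:117696358-117696657, minus strand (Clec4f). Capitals mark matches on either strand to 3 motifs, which do not overlap in these windows. The first is AGGAAG, the core bound by ETS factors such as PU.1 of macrophages. The TATA box, searched as TATAAA, is the element near which many transcripts start. The C/EBP motif was searched as TTGCNNAA.
Marco: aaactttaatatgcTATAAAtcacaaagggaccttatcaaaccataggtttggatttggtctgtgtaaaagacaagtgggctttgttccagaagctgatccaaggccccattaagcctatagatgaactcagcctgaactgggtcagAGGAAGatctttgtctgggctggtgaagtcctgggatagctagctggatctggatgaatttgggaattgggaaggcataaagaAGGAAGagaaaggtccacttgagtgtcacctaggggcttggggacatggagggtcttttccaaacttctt
Lyz2: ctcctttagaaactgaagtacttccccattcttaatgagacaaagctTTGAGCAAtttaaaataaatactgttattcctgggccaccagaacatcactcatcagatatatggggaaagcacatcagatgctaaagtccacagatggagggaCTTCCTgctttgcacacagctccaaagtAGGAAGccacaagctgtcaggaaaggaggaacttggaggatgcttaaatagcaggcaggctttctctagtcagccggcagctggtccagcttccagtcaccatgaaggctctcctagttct
S100a9: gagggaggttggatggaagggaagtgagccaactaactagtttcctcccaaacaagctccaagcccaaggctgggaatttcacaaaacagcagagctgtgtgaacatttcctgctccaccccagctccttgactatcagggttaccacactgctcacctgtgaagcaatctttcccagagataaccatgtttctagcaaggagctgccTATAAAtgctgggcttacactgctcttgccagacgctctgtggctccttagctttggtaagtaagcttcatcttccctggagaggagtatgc
Clec4f: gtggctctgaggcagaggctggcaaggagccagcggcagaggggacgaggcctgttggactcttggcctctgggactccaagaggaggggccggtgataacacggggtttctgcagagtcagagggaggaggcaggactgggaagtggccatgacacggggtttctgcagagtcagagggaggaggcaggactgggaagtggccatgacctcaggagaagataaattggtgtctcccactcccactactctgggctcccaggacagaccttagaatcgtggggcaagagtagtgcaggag

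Of the 10 members, 9 had a promoter in the table used, all but S100a8. The ETS core was found in 6 of these 9 (Cd163, Marco, Cd68, Cd5l, Csf1r and Lyz2), against 34.3% of 27457 rat promoters of the same length. The TATA box was found in Marco and S100a9, against 14.3% of promoters, and the C/EBP motif in Lyz2, against 10.5%. The Clec4f window, shown last, held none of these letters. These matches describe the sequence only.

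Levels are given as scaled signal, the array's fluorescence after each array was scaled to the same 75th percentile, and a probe was counted as measured on an array when all of its spots were well above background. Levels of different probes cannot be compared with each other, so each probe is followed across arrays, and a sum over a list is weighted by the brightness of its probes and compares only arrays. All 10 members were well above background in iron-free liver and 9, all but S100a8, in iron-sufficient liver. In kidney 3 members were measured on the iron-free and 2 on the iron-sufficient array, and in FAO 2 were measured with DFO and 1 without. Of all probes, 47.7% were well above background in iron-free liver and 40.1% in iron-sufficient liver. The share was 40.5% in iron-free and 37.7% in iron-sufficient kidney, and 48.8% with and 48.4% without DFO in FAO. The tissue labels fitted their markers: albumin (Alb) read 142826 and 86391 in iron-free and iron-sufficient liver and was not well above background in kidney, and uromodulin (Umod) read 164908 and 200247 in iron-free and iron-sufficient kidney and was not well above background in liver or FAO.

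Before the results, 1 library has to be set apart. Of 264 blocks of 16 by 16 spots, 9 were noisy on the iron-free and 47 on the iron-sufficient liver array (repeated spots departed from each other at more than 2 times the array's usual level, or the block's median was shifted by over 0.5 log2). Among probes with 2 spots, both well above background, spots lay 2-fold or more apart for 85 of 7628 on the iron-free liver array (1.11%) and for 484 of 6407 on the iron-sufficient one (7.55%). On the arrays of kidney and FAO that share was 2.25% to 5.24%, and noisy blocks numbered from 8 (iron-free kidney) to 33 (iron-sufficient kidney). The iron-sufficient liver array is the control of every liver comparison below. Iron-responsive genes served as a check of the diet labels: Tfrc, the transferrin receptor, read 18779 in iron-free and 1431 in iron-sufficient liver, and Hamp, the hormone hepcidin, read 89.0 in iron-free and 73800 in iron-sufficient liver.

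**Figure D1:**
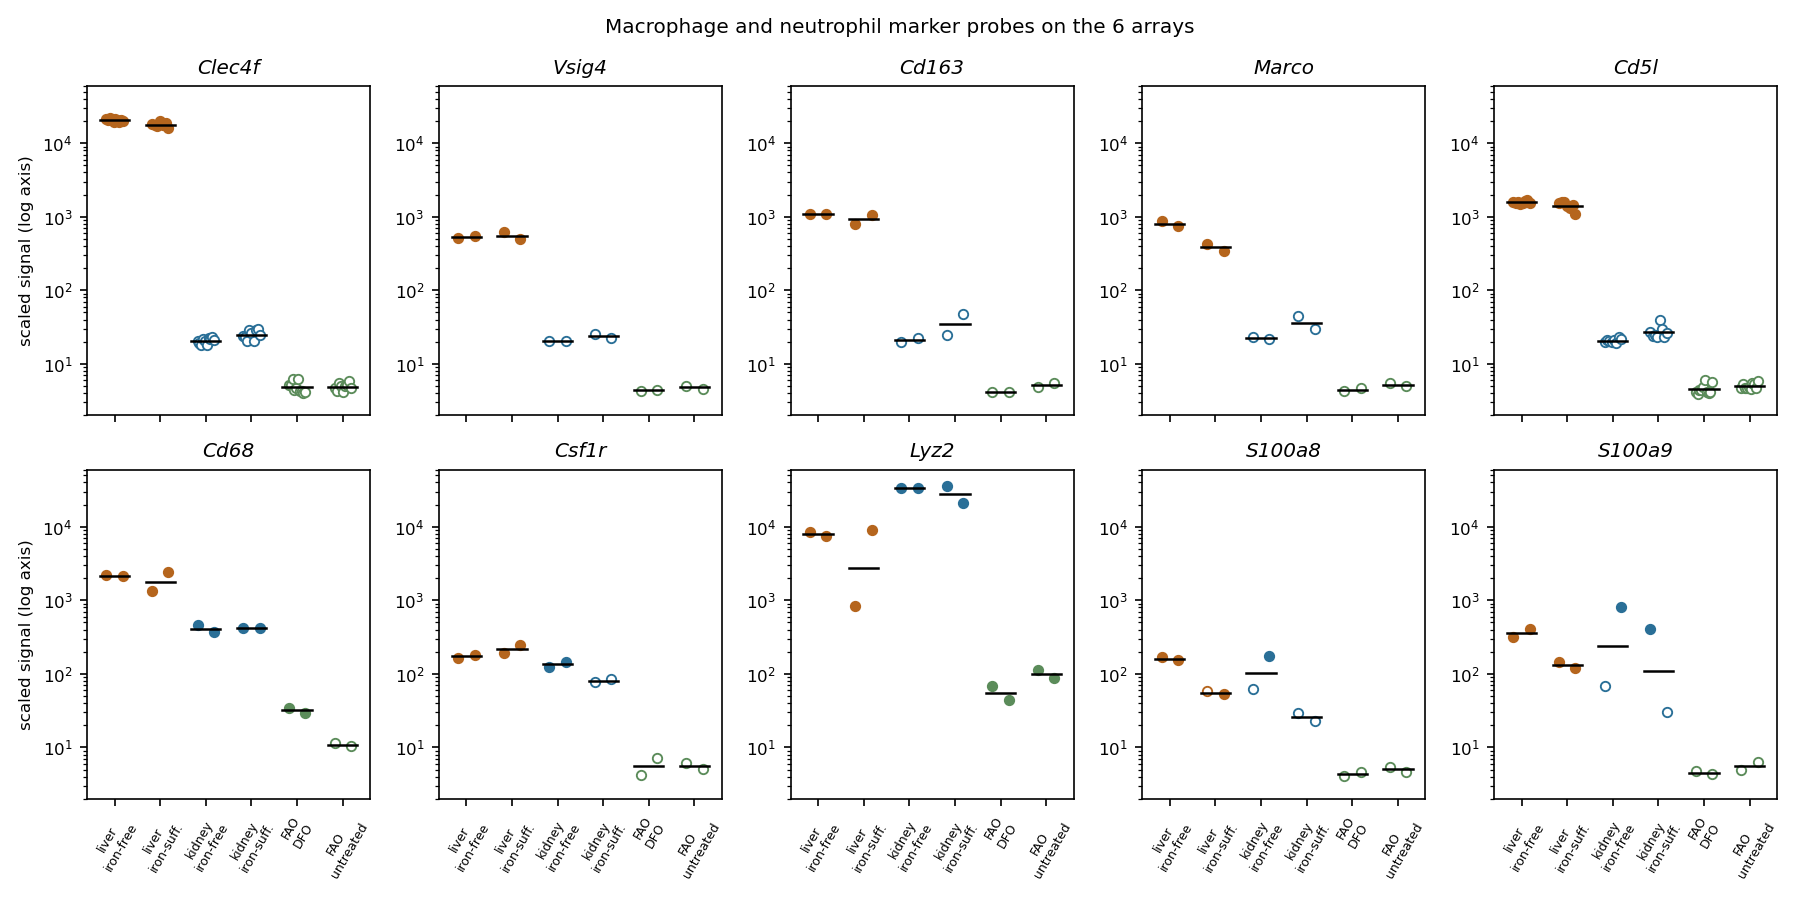
Scaled signal (log axis) of the representing probe of each of the 10 marker genes on the 6 arrays, with 1 point per spot, filled where the spot was well above background and open where it was not, and a bar at the mean on the log scale. Most members sit high in both liver arrays and at the floor in FAO, Lyz2 is higher in kidney than in liver, and its spots in iron-sufficient liver lie at 843 and 9107.

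The receptors of resident macrophages other than Marco differed little between the livers. Clec4f read 20704 in iron-free liver, with 10 spots between 19720 and 22099, and 17927 in iron-sufficient liver, with 7 spots between 15983 and 19950 after outliers were left out. The difference was 0.21 ± 0.14 log2, and the spots of the groups overlapped. Clec4f is the member measured at most positions, and its difference was positive at each position used on both arrays, between 0.04 and 0.32. Vsig4, the complement receptor, had spots of 522 and 549 in iron-free liver and of 627 and 491 in iron-sufficient liver, a difference of -0.05 ± 0.27. The iron-free spots lay inside the range of the iron-sufficient ones. Cd163, the haemoglobin-haptoglobin receptor, had spots of 1101 and 1102 in iron-free liver and of 802 and 1069 in iron-sufficient liver, a difference of 0.25 ± 0.26, with the lower iron-sufficient spot making most of the gap. 

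Cd5l, the secreted macrophage protein, read 1576 in iron-free and 1420 in iron-sufficient liver on its brighter probe, a difference of 0.15 ± 0.14 over 8 and 7 spots. Its second probe read 1132 and 1088, a difference of 0.06 ± 0.37, so that neither probe came near 2-fold. Cd68 had spots of 2191 and 2113 in iron-free liver and of 1344 and 2392 in iron-sufficient liver, a difference of 0.26 ± 0.27. Its 2 positions went opposite ways, at -0.18 and 0.71, and without the spot that lay in a noisy block of the iron-sufficient array the difference was -0.12. Csf1r, the growth factor receptor, had spots of 164 and 181 in iron-free liver, both below the spots of 192 and 243 in iron-sufficient liver, a difference of -0.33 ± 0.35. Its other probe was not well above background on any of the 6 arrays.

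Marco was the macrophage receptor that passed the size rule. Its spots read 873 and 742 in iron-free liver and 428 and 345 in iron-sufficient liver, a difference of 1.07 ± 0.29 (2.09-fold). Both iron-free spots lay above both iron-sufficient ones, and the positions gave 1.03 and 1.11. Both iron-sufficient spots lay in noisy blocks, so no value is left when those blocks are dropped.

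The neutrophil and monocyte pair was higher in iron-free liver at both positions of each probe. S100a8 had spots of 168 and 155 in iron-free liver and of 59.1 and 52.5 in iron-sufficient liver, where only the spot at 52.5 was well above background, and it was at least 2.90-fold higher. The positions gave 1.51 and 1.56 log2. S100a9 had spots of 317 and 412 in iron-free liver and of 144 and 122 in iron-sufficient liver, a difference of 1.45 ± 0.43 (2.72-fold), with positions at 1.14 and 1.75. The iron-free S100a9 spot at 412, which gave the larger position difference, lay in a noisy block. Neither gene's spots overlapped between the groups. Both probes were dim, and with another background correction (normexp with an offset of 50 added to every signal, chosen after seeing the data) the differences were 0.50 for S100a8 and 0.46 for S100a9, below the size rule.

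Lyz2 passed the size rule as computed, but only 1 of its 2 positions showed the difference. Its spots read 8424 and 7390 in iron-free liver and 843 and 9107 in iron-sufficient liver, which gives 1.51 ± 0.27 (2.85-fold). That error is the pooled one, and the 2 iron-sufficient spots themselves had a standard deviation of 2.43 log2. The positions gave 3.32 and -0.30, and with the brighter spot of each array, an alternative chosen after seeing the data, the difference was 0.01. The 2 iron-sufficient spots were 10.8-fold apart, as far as those of only 3 of the 6407 probes with 2 detected spots on that array (10-fold or more). Among repeated spots of the brighter probes within 5 rows and columns of that position, 0 of 47 on the iron-free array and 7 of 46 (15.2%) on the iron-sufficient array lay 4-fold or more below the brightest spot of their own probe, where 3.55% did so over the whole iron-sufficient array. The dim spot was neither flagged as an outlier nor in a noisy block, so no filter removed it.

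A paralog gives another reading of lysozyme. Lyc2, a second lysozyme gene for which RefSeq lists Lyz2 among the synonyms, has 1 spot, which read 585 in iron-free and 185 in iron-sufficient liver, a difference of 1.66 ± 0.60, and was not well above background in kidney or FAO. In iron-free and iron-sufficient kidney the Lyc2 probe read 21.1 and 25.4, where the Lyz2 probe read 33646 and 27532. How far either probe binds the transcript of the other gene was not tested.

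In all, 4 of the 10 members (Marco, Lyz2, S100a8 and S100a9) were at least 2-fold higher in iron-free liver and 0 were lower, beside 6.52% of the 10172 genes measured that were higher and 3.01% that were lower. S100a8 was measured only on the iron-free side, and 380 of the 663 genes higher in liver were likewise bounds. The members' median was 0.26 log2, against 0.02 over all genes measured. Since Lyz2 had 0.01 with its brighter spots, Marco no value outside noisy blocks and the S100 pair 0.50 and 0.46 under normexp, each of the 4 has at least 1 setting in which it is not at least 2-fold higher or cannot be read. In these bulk samples, fewer or more cells of a type and less or more RNA per cell cannot be told apart.

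**Figure D2:**
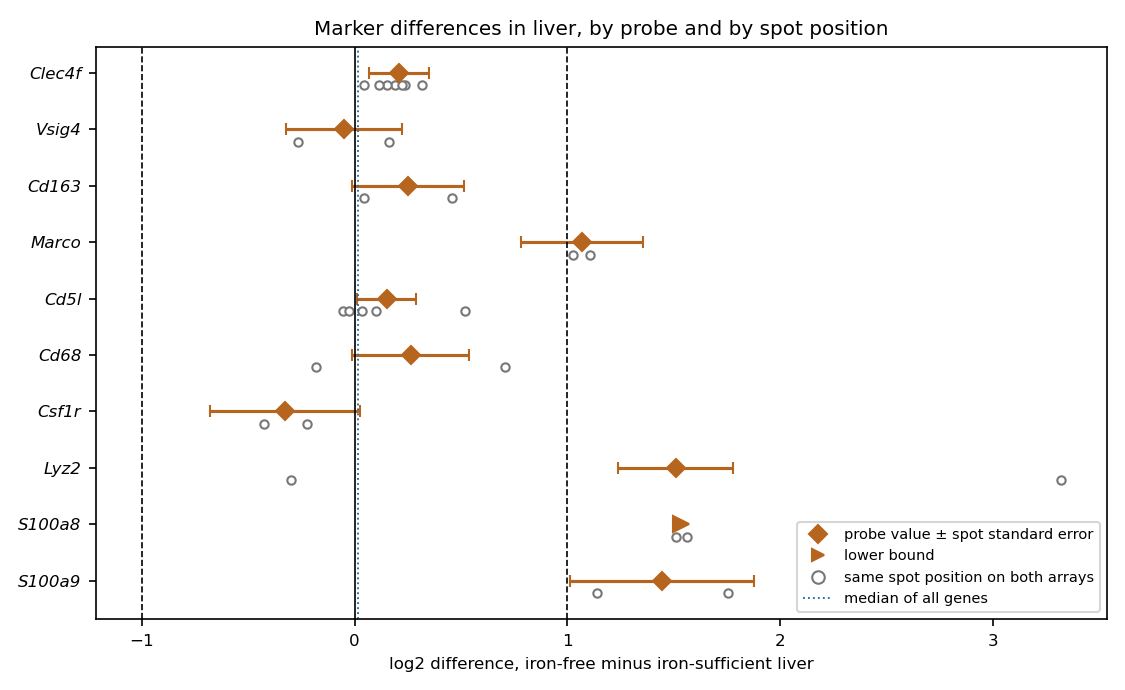
Log2 difference of each marker, iron-free minus iron-sufficient liver, as the probe's value with the pooled spot standard error (diamonds), as a lower bound (triangle), and at each spot position used on both arrays (open circles). Dashed lines stand at 2-fold. S100a8, S100a9 and Marco lie past 2-fold at every position, and the Lyz2 positions lie at -0.30 and 3.32.

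Setting each member against Clec4f removes the scaling of the arrays. Relative to Clec4f, the liver difference was 0.86 for Marco, 1.30 for Lyz2, at least 1.33 for S100a8 and 1.24 for S100a9. It was 0.04 for Cd163, 0.06 for Cd68, -0.06 for Cd5l, -0.26 for Vsig4 and -0.53 for Csf1r. The scaling matters for the sign of small differences: with each array scaled to the median of its own detected probes, which moved the median of all genes in liver to 0.59, Vsig4 stood at 0.53 and Csf1r at 0.25, both still below that median.

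Other genes of the same cells were taken as lists chosen with earlier results of these data known. Of 37 further macrophage and monocyte genes on the array, 32 were measured in liver, 3 were at least 2-fold higher in iron-free liver and 0 lower, with a median of 0.06. The 3 were Msr1, a scavenger receptor of the same class as Marco (at least 1.63 log2), Lgals3, the lectin galectin-3 (1.18 ± 0.25), and Fcgr2b, an inhibitory antibody receptor that sinusoidal endothelium also makes (1.04 ± 0.39). Over all genes measured in liver, 663 of 10172 were at least 2-fold higher as reported. The list count was 1 without spots in noisy blocks, where 521 of 9698 genes were higher. It was 7 with the scaling to the median of detected probes, where 2120 of 10379 genes were higher. Of the probes with the highest signal in that list, several stayed below 2-fold: C1qb, a complement C1q chain, read 19893 in iron-free and 21575 in iron-sufficient liver, Nr1h3, a nuclear receptor for oxysterols, 13322 and 14045, and C1qa 12111 and 13010. The summed signal of the list was 99742 in iron-free and 95588 in iron-sufficient liver.

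FAO cells themselves made some of these transcripts. Of the 37 genes, 27 were not well above background on either FAO array, and of the 24 of these measured in liver 1 passed the size rule upwards (median -0.01). Of the 10 that were detected in FAO, 8 were measured in liver and 2 passed it upwards, Lgals3 and Fcgr2b (median 0.46). Lgals3 read 13359 with DFO and 6212 without it in FAO, and Nr1h3, named above, read 2571 and 3370. The signal of both in liver need not come from macrophages.

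Detection of other neutrophil genes in liver was partial. Of 29 further neutrophil and granule genes, 8 were well above background in iron-free and 5 in iron-sufficient liver. Mpo, Elane, Prtn3, Ctsg, Csf3r, Cxcr2, Ltf, Ngp, Mmp8 and Mmp9, chosen here after their values were seen, had all spots well above it on none of the 6 arrays. Although not counted as measured, Mpo read 20.2 in iron-free and 151 in iron-sufficient liver, opposite in direction to S100a8 and S100a9. List genes above background in iron-free liver included Fpr1, Camp, Fcnb, a ficolin of neutrophil granules (92.9 in iron-free and 86.5, not well above background, in iron-sufficient liver), and Padi4, an enzyme of neutrophil extracellular traps (290 and 324). Of the 7 measured in the liver comparison, Fpr1, the receptor for bacterial formyl peptides, was at least 2-fold higher (145 in iron-free liver, against 47.6, not well above background, in iron-sufficient liver, at least 1.61 log2), and 0 were lower, with a median of 0.14, while under normexp 0 were higher. The summed signal of the list was 6669 in iron-free and 6550 in iron-sufficient liver. Among its S100 genes, which many cell types express, S100a6 read 2686 in iron-free and 3275 in iron-sufficient liver, and S100a10 1883 and 1211. Camp, an antimicrobial granule peptide, was above background only in iron-free liver (62.0, against 72.0 not well above background in iron-sufficient liver).

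Markers of other cells moved in the same liver comparison. Erythroid genes had 7 of 9 measured at least 2-fold higher in iron-free liver (median 1.80), among them Tfrc, which every dividing cell also uses, and Rhd, a blood group antigen (3.06 ± 0.58). Genes of dividing cells had 6 of 9 higher (median 2.52), with Cdk1, the mitotic kinase, at 3.36 ± 0.20. Endothelial genes had 3 of 9 higher (median 0.18), which were Fcgr2b, Lyve1 (1.03 ± 0.27) and Stab2 (1.01 ± 0.43), both hyaluronan receptors of liver sinusoids. Lymphocyte genes had 0 of 6 at least 2-fold higher and 0 lower (median -0.04). The part of red cell precursors, dividing cells or endothelium in the Marco, Lyz2, S100a8 and S100a9 differences was not tested.

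**Figure D3:**
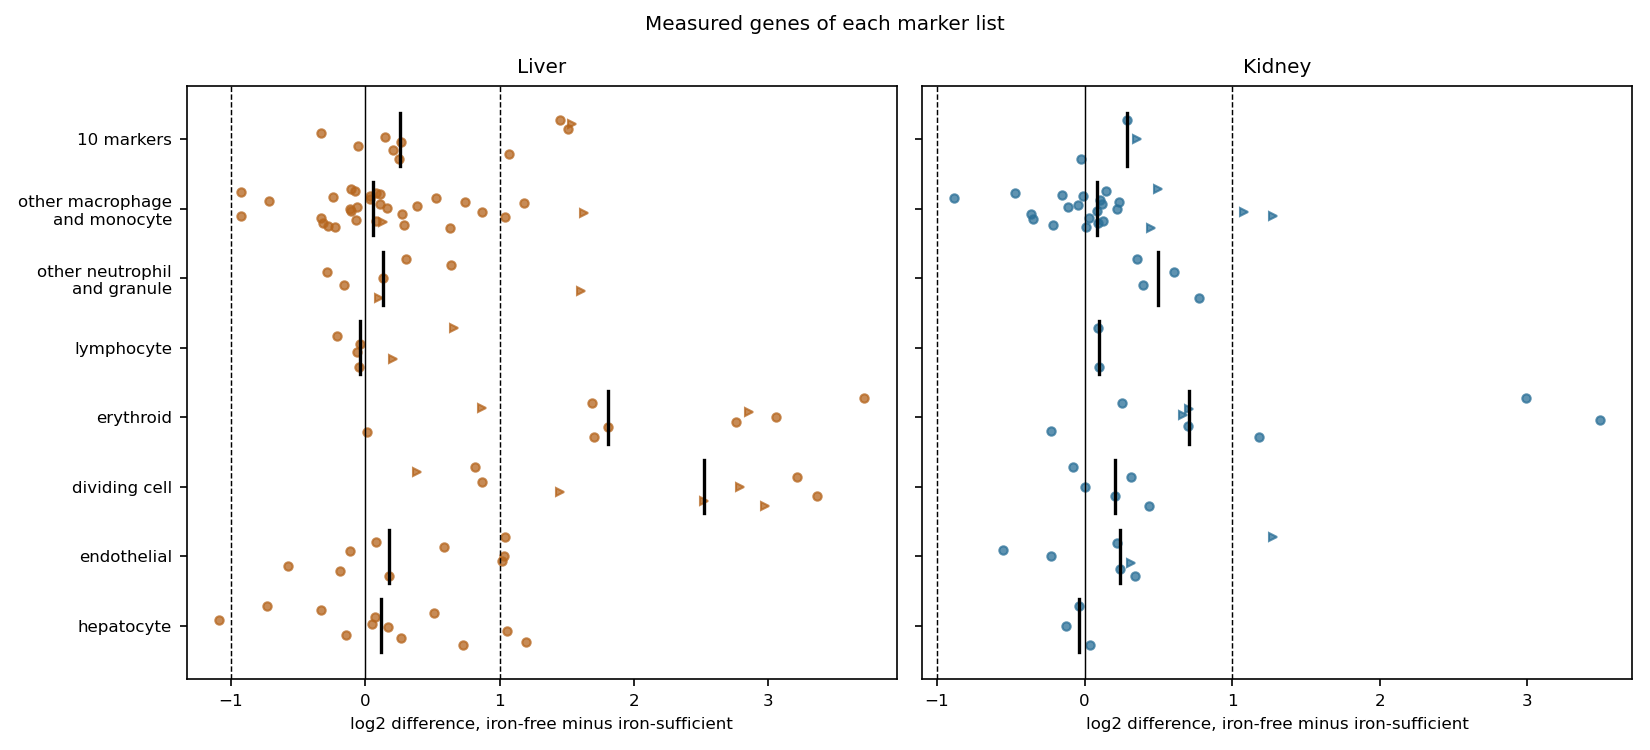
Log2 difference, iron-free minus iron-sufficient, of each measured gene in the marker lists, in liver (left) and kidney (right), with triangles for bounds, a black bar at each list's median and dashed lines at 2-fold. In liver the 37-gene macrophage list centres on 0.06 while erythroid and dividing cell genes centre on 1.80 and 2.52.

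Ligands of the scavenging and growth factor receptors were also on the array. The Cd163 ligand haptoglobin, Hp, read 380476 in iron-free and 405011 in iron-sufficient liver, a difference of -0.09 ± 0.27. Complement C3, the source of the fragments that Vsig4 binds, differed by -0.36 ± 0.27. Of the Csf1r ligands, Csf1 was, of the livers, detected only in the iron-free one and was at least 0.53 log2 higher there, and Il34 differed by -0.33 ± 0.26.

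In kidney, 3 of the 10 members could be compared between diets and 0 of the 3 differed 2-fold, beside 3.11% of 8952 genes that were higher and 1.26% that were lower. Lyz2 was bright in both kidneys, with spots of 33793 and 33499 on the iron-free and of 36106 and 20994 on the iron-sufficient array, a difference of 0.29 ± 0.20. The lower iron-sufficient spot lay in a noisy block, and the positions gave -0.10 and 0.67. Cd68 had spots of 455 and 375 in iron-free and of 423 and 417 in iron-sufficient kidney, a difference of -0.02 ± 0.27, and the groups overlapped. Csf1r had spots of 124 and 146 in iron-free kidney and of 77.0 and 85.0, neither well above background, in iron-sufficient kidney, and was at least 1.28-fold higher.

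The S100 pair could not be read in kidney, because its spots disagreed. S100a9 had spots of 69.1 and 819 in iron-free kidney and of 409 and 30.1 in iron-sufficient kidney, which gives position differences of -2.57 and 4.77. The spots at 819, 409 and 30.1 lay in noisy blocks. Around the spot at 30.1, 24 of 37 repeated spots (64.9%) lay 4-fold or more below the brightest spot of their own probe. Over the whole iron-sufficient kidney array 5.17% did so. S100a8 had spots of 61.3 and 175 in iron-free kidney and of 29.0 and 22.5 in iron-sufficient kidney, of which only that at 175 was well above background. Clec4f, Vsig4, Cd163, Marco and Cd5l were at or near the floor in kidney, with no spot used well above background on either array. Cd5l spots of 154 and 175 in iron-free kidney were well above background, but they were flagged as outliers and left out.

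The other macrophage genes measured in kidney numbered 23, of which Fcgr2b (at least 1.28 log2) and Timd4, a receptor for dying cells (at least 1.08 log2), were higher in the iron-free kidney (0 under normexp) and 0 were lower, with a median of 0.08. The summed signal of the 37 genes was 54767 in iron-free and 59596 in iron-sufficient kidney. Of the neutrophil list 4 genes, all of the S100 family, were measured, and 0 of the 4 passed the size rule in either direction (median 0.50).

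In FAO 8 of the 10 members had no spot well above background on either array. Clec4f read 4.79 with DFO and 4.89 without it, Marco 4.47 and 5.24, S100a8 4.31 and 5.02, and S100a9 4.54 and 5.56. Lyz2 was the member detected on both FAO arrays, with spots of 67.5 and 44.1 with DFO and of 114 and 86.8 without it. Both DFO spots lay below both untreated ones, a difference of -0.87 ± 0.89. Cd68 had spots of 34.2 and 29.5 with DFO and of 11.4 and 10.4, neither well above background, without it, and was at least 1.49-fold higher. Of these 2 members 0 passed the size rule, beside 4.05% of 10696 genes that were higher with DFO and 6.44% that were lower.

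Some genes of the companion lists did respond in FAO. Of 9 macrophage genes measured, Cd14, the lipopolysaccharide co-receptor, was higher with DFO (1377, against 544 without it, 1.34 ± 0.21), as was Lgals3 (1.10 ± 0.15), and 0 were lower, while under normexp 0 passed the size rule upwards. From the neutrophil list 8 genes were measured: RatNP-3b, a defensin, was at least 3.84 log2 higher with DFO (306, against 5.03, not well above background, without it), Lcn2, an iron-siderophore binding protein of neutrophil granules and stressed epithelia, was 2.44 ± 1.13 higher, and Fpr1 was lower by a difference of -1.07 ± 0.53. The hepatoma line therefore gives signal for some genes listed as leukocyte markers, and Cd14, Lgals3, Lcn2 and Fpr1 signal in a tissue cannot be ascribed to leukocytes from these arrays.

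**Figure D4:**
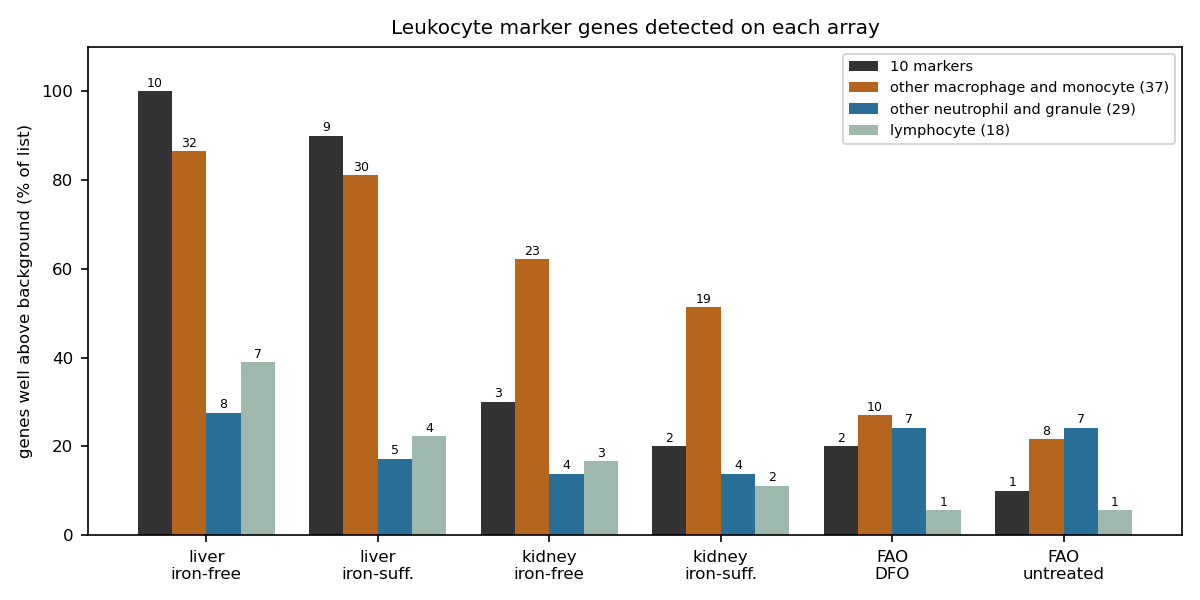
Share of each list's genes (percent of the genes on the array) that were well above background on each of the 6 arrays, with the number of genes above each bar. Macrophage genes stand at 32 and 30 of 37 in iron-free and iron-sufficient liver and at 10 and 8 in FAO with and without DFO, while the neutrophil list stays between 4 and 8 of 29 on every array.

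Liver against FAO sets tissue with its sinusoidal cells against a hepatoma line, and the 2 also differ in hepatocyte genes. Of 12 hepatocyte markers, 11 were at least 2-fold higher in iron-sufficient liver than in untreated FAO and 0 were lower. Their median was 4.12 log2, and that of the members was 4.80. Of the 9 members that could be compared between iron-sufficient liver and untreated FAO, all 9 were at least 2-fold higher in liver, beside 27.8% of 10595 genes that were higher and 27.7% that were lower. Clec4f was at least 841-fold higher, Cd68 at least 84.1-fold, Cd5l at least 66.7-fold and Cd163 at least 43.4-fold. Vsig4 was at least 26.0-fold higher, Marco at least 18.0-fold, Csf1r at least 10.1-fold and S100a9 at least 6.22-fold. Lyz2, the member with a measured level on both sides, read 2771 in liver and 99.4 in FAO (27.9-fold), with the doubt over its dim spot in liver. All other 8 values are bounds, since FAO was at the floor, and S100a8 was above background on neither array. For those members that passed only because liver was bright, the direction follows from the filter.

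In liver against kidney, Cd68 and Lyz2 were the members measured on both arrays. On the iron-sufficient diet 7 of the 9 members compared were at least 2-fold higher in liver and 1 lower, beside 14.9% of 9337 genes higher and 26.6% lower. Of the 9 values 7 are bounds, of members above background in liver alone, and their direction follows from the filter. Clec4f was at least 171-fold higher in liver, Cd5l at least 13.5-fold, Cd163 at least 8.81-fold, Vsig4 at least 5.28-fold, Marco at least 3.66-fold and Csf1r at least 2.06-fold. Cd68, which macrophages of every tissue carry, was measured in both and read 1793 in liver and 420 in kidney (4.27-fold). Lyz2 went the other way, at 2771 in liver and 27532 in kidney, 9.94-fold lower in liver. S100a9 has no direction here, since its kidney spots disagreed and its positions gave -1.51 and 2.02.

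On the iron-free diet, where no Lyz2 spot stood apart, Lyz2 read 7890 in liver and 33646 in kidney, 4.26-fold lower in liver. Cd68 was 5.21-fold higher in iron-free liver than in iron-free kidney, and Csf1r, there measured on both arrays, read 172 and 135 (1.28-fold, 0.36 ± 0.66). Between the iron-free tissues, 6 of 10 members were at least 2-fold higher in liver and 1 lower, beside 13.8% of 10068 genes higher and 24.5% lower. Of the 10 values 7 are bounds, of members counted as above background in liver alone, and their direction follows from the filter. Of 27 other macrophage genes compared between the iron-sufficient tissues, 13 were at least 2-fold higher in liver and 1 lower, with a median of 0.66. Of these 27 values 8 are bounds of the same kind. Tyrobp, a signalling adaptor of myeloid cells, read 6111 in iron-sufficient liver and 3949 in iron-sufficient kidney, and Laptm5, a leukocyte lysosomal protein, 4083 and 3474. Which cells of the kidney gave the Lyz2 signal was not tested.

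The genes whose pattern over the 6 arrays was nearest to 3 of the members were sought among 11591 genes well above background on at least 2 arrays, as the root mean square distance of log2 levels after centring each gene. Nearest to Cd163 were Ugt2a3 (0.18), Lrat (0.27) and Nags (0.31), all high in both livers and at the floor elsewhere. Nearest to Lyz2 were Irx1 (0.30), Prss23 (0.36) and Tm4sf1 (0.40), and nearest to S100a9 were Mmp17 (0.31), Cyp7b1 (0.34) and Hic1 (0.36). None of these 9 is in the leukocyte lists, and the 6 arrays hold only 2 tissues and 1 cell line. The Lyz2 distances include its iron-sufficient liver value, which rests on the dim spot. Those of S100a9 include its kidney values, whose spots disagreed, so the neighbours of both carry that doubt.

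**Figure D5:**
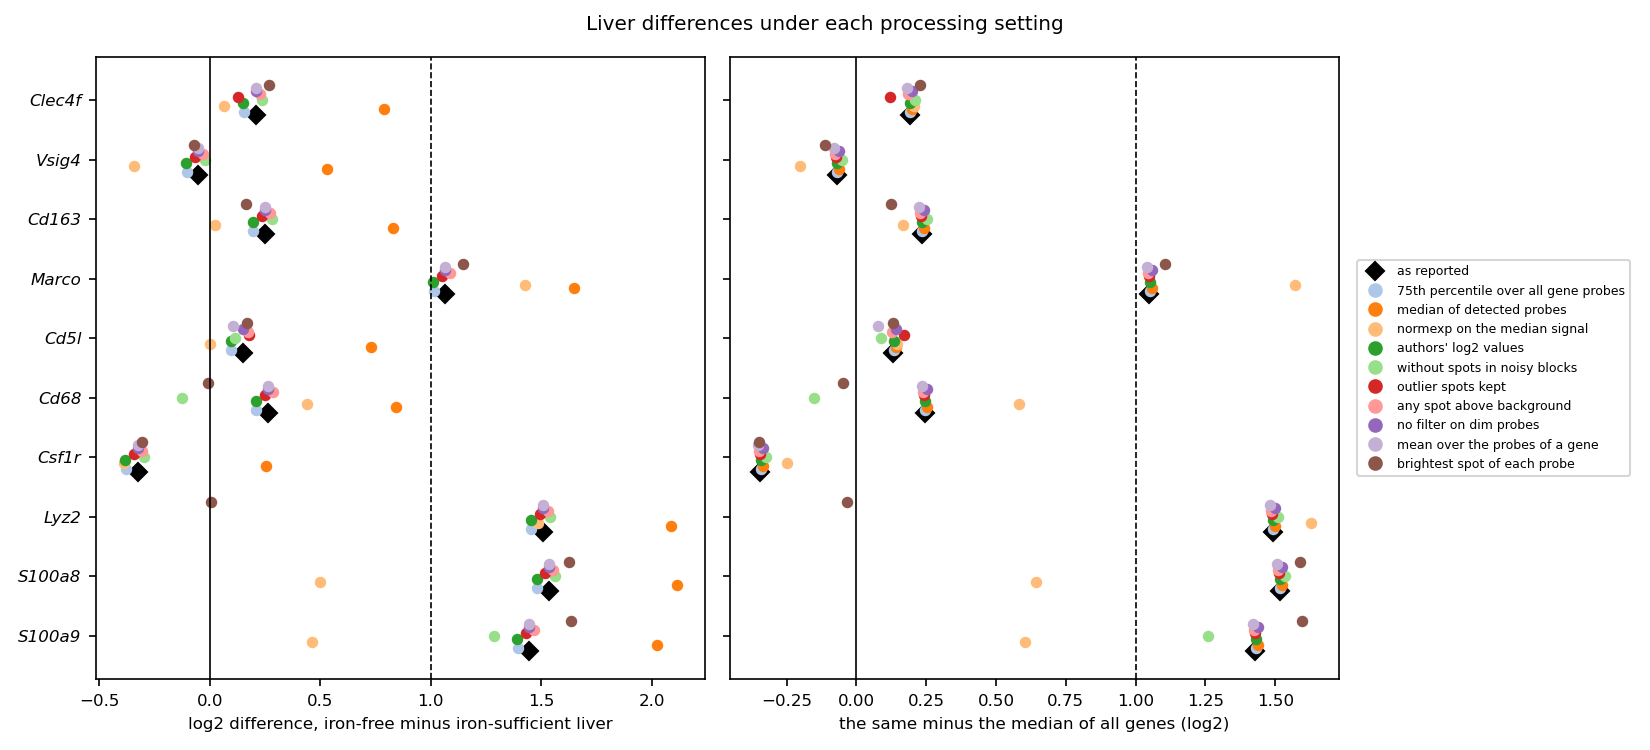
Log2 difference of each marker, iron-free minus iron-sufficient liver, under each processing setting, as computed (left) and after the median of all genes under the same setting was taken off (right), with dashed lines at 2-fold. Lyz2 stands at 0.01 with the brightest spot of each probe, and S100a8 and S100a9 at 0.50 and 0.46 under normexp on the median signal.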

How the data were processed

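Total RNA of 6 pools was hybridised to 6 one-colour arrays on 1 slide, 1 array per group. Spot intensities are the authors', read from the scans by version 10.7.3.1 of Agilent Feature Extraction (array design 028279, header build rn4), per the file headers. The deposited intensity gProcessedSignal is background-subtracted. The authors' deposited table also holds log2 values, which equal log2 intensity minus a constant per array, with column medians between -4.17 and -3.26, and its scale and direction were checked against the scanner files.

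Log2 intensity was averaged over a probe's spots without outlier flags (680 to 1215 spots per array were flagged, 0 saturated) and the arrays were brought to 1 common 75th percentile, taken over those 9091 probes (29.9%) that every array measured well above background. Where only 1 array of a comparison was above background, the difference is a bound (at least N-fold) against the dim signal, or against the lowest signal detected on that array if this was higher. Of several probes, the brightest represents the gene. A gene counted as higher or lower at 2-fold (log2 1), and no test was possible with 1 array per group. The spot standard error is pooled over probes in 20 bins of signal. The number of arrays and signal over background limit the precision. Members and lists were chosen with earlier results of these data known. Counts over the list of ligands and partners are not reported here. Named genes are all members, and from each list up to 3 genes with the largest 2-fold difference and up to 4 of the brightest, with others named after their values were seen. Computation used Python 3.11.15, numpy 2.4.6 and pandas 2.3.3, with normexp in limma 3.58.1, and the steps were tested on simulated data.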

Additional observations from a re-analysis of the deposited data

Results flagged for a closer look

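Signs differed between the tissues or the line for 3 members, and the difference between those contrasts was not tested, since each rests on 1 array per group. Cd68 had 0.2629 in liver and -0.0245 in kidney (iron-free minus iron-sufficient), and a bound of 0.5755 in FAO (DFO minus untreated). Csf1r had -0.3266 in liver and a bound of 0.3572 in kidney. Lyz2 had 1.5095 in liver and 0.2893 in kidney, and -0.8651 in FAO. The Cd68 values in liver and kidney and the Csf1r value in liver are within 1 spot standard error of 0, and the Lyz2 value in liver rests on the spot at 843 in iron-sufficient liver.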

How the results depend on the processing

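Of 15 single member values with a direction, none turned from a 2-fold difference one way to one the other way under the alternatives run. Only the 4 past 2-fold as reported could do so. Some smaller values changed sign. In liver Vsig4 ranged from -0.34 to 0.53, Cd68 from -0.12 to 0.84 and Csf1r from -0.39 to 0.25. In kidney Lyz2 ranged from -0.07 to 0.49 and Cd68 from -0.03 to 0.18. The other values kept their sign. In liver the count of members at least 2-fold higher, 4 as reported, was 2 under normexp and 0 under a 3-fold rule, and between 3 and 4 otherwise. Over all genes in liver, 367 of 9598 were higher under normexp and 248 of 10172 under the 3-fold rule. The liver median was 0.84 with each array scaled to the median of its detected probes, under which 2120 genes were higher and 78 lower, against 663 and 306 as reported. After the median of all genes was taken off, the members' median was 0.25 with that scaling and 0.24 as reported. In kidney the median of 3 members was 0.015 without spots in noisy blocks, and with any spot above background 2 of 5 members were higher (median 0.74). With the brightest spot 1 of 5 was higher in kidney. Over all genes in kidney, 635 of 10236 were higher with any spot and 588 of 10230 with the brightest spot, against 278 of 8952 as reported. In FAO 1 of 2 members (Cd68) was higher with any spot above background or with no filter, and 1 (Lyz2) was lower under a 1.5-fold rule. Over all genes in FAO, 870 of 11965 were higher with any spot and 539 of 10742 with no filter. Under the 1.5-fold rule 1253 of 10696 were lower. The liver against FAO median, 4.80 as reported, was 4.22 with the median scaling, 4.32 under normexp, 6.14 with any spot above background and 6.86 with no filter. The liver against kidney median, 2.09 as reported, was 2.53 with the median scaling, 1.73 under normexp, 2.51 without noisy blocks, 2.70 with any spot above background, 3.41 with no filter and 2.42 with the brightest spot, which also gave 2 members lower. The cause of these shifts was not tested. The scanner files hold no mean signal, so the planned normexp on it was not run and the median signal was used instead, like the brightest spot an alternative chosen after seeing the data. No paired analysis was possible because each group has 1 array.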
